A study of Homo sapiens with 36 samples.

Results

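The 10 genes described here are PHGDH, PSAT1, PSPH, SHMT2, MTHFD2, ASNS, CHAC1, DDIT3, ATF4 and TRIB3, a listed set of serine synthesis enzymes, mitochondrial one-carbon enzymes and target genes of the transcription factor ATF4. They were chosen by symbol, as 10 of the 59041 genes to which the quantified transcripts belonged, and estimated counts were summed over the transcripts of each gene. The study measured the transcriptional response of acute myeloid leukemia (AML) cells to the standard drugs cytarabine, a nucleoside analog that is built into DNA, and daunorubicin, an anthracycline that acts on topoisomerase II. The established lines HL60, MOLM13 and OCIAML3, all labelled wild type, were exposed for 24 h to the solvent DMSO, to 0.1 µM cytarabine, to 0.02 µM daunorubicin, or to both drugs at these doses (the combination). Each of the 12 groups held 3 libraries labelled as biological replicates, 36 in all. HL60 and MOLM13 were grown in RPMI with 10% fetal bovine serum and OCIAML3 in alpha-MEM with 20%, and a difference between OCIAML3 and another line cannot be told apart from one of medium. Each line is 1 established culture, and no source used here tells if replicates came from separate treatments. The p-values then reflect only the spread between these libraries, which may be technical.

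Serine is made from a glycolytic intermediate in successive steps by PHGDH, PSAT1 and PSPH, and SHMT2 and MTHFD2 pass its carbon into the folate cycle inside mitochondria, where it feeds nucleotide synthesis. ATF4 is the main transcription factor of the integrated stress response, in which phosphorylated eIF2alpha lowers general translation but raises translation of ATF4 itself, so that ATF4 activity need not follow ATF4 mRNA. Its known targets include all the enzymes above, the asparagine synthetase ASNS, the glutathione-degrading enzyme CHAC1, the pro-apoptotic factor CHOP encoded by DDIT3, and the pseudokinase TRIB3, which binds ATF4 and limits its activity.

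Promoters from RefSeq (GRCh38.p14) were given for 8 of the 10 genes, all but PSPH and SHMT2. The 250 bases before the start site were searched on both strands for TGATGNAA, the core of the composite CEBP-ATF element that ATF4 is known to bind, for the E-box CACGTG, and for the cyclic AMP response element TGACGTCA. TGATGNAA was present for 2 of these 8 genes, ASNS and CHAC1, against 3.14% of all 35116 promoter stretches of this length. CACGTG was present for ATF4 alone, against 6.34% of all stretches, and TGACGTCA for 0 of the 8 genes, against 1.65%. ASNS, DDIT3, ATF4 and TRIB3 had more than 1 start site, and a match before any of them counted for the gene. The percentages are per stretch and so not a like measure. ASNS had its match before start site 1 and not before start site 2. The same ATF4 match lay before both its start sites, and positions are given from start site 1. The 3 matches are shown, each as the 30 bases around it from 5′ to 3′ on the strand of the gene with the motif in capitals, because ASNS, CHAC1 and ATF4 responded to the drugs in different ways. They lie at chr7:97872458-97872487 on the minus strand for ASNS, where the motif spans bases -68 to -61 from the start site, at chr15:40953251-40953280 on the plus strand for CHAC1, where the motif spans bases -209 to -202 and reads in the opposite orientation, and at chr22:39520465-39520494 on the plus strand for ATF4, where it spans bases -82 to -77.
ASNS: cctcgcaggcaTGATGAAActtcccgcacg
CHAC1: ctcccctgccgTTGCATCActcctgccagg
ATF4: ggaggagacggtCACGTGgtcgcggcggaa
A match describes letters in the window, and binding was not measured.

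The 36 libraries held 25067734 to 47322144 estimated counts each, with a median of 32194478. All 10 genes passed the filter on low counts in every line, among 15608 genes tested for HL60, 16184 for MOLM13 and 16650 for OCIAML3. The myeloid identity of the lines was checked with 5 markers (CD33, SPI1, PTPRC, LYZ and MPO), and all 5 reached a mean of 1 CPM (counts scaled to library size) or more in each line, with summed levels of 1030 to 4040 CPM per library. Erythroid markers summed to at most 0.389 CPM and T cell markers to at most 2.22 CPM in any library, with 0 of 3 at 1 CPM in each line. Epithelial markers summed to at most 3.26 CPM, and of these KRT8 reached 1 CPM in MOLM13.

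A pair of OCIAML3 libraries went against their labels. CDKN1A, the p53 target that encodes the cell cycle inhibitor p21, lay at 105, 90.6 and 78.5 CPM in the OCIAML3 DMSO libraries of replicates 1, 2 and 3, at 110.0, 102 and 378 CPM after cytarabine, at 1260.3, 931 and 391 CPM after daunorubicin and at 1389, 1082 and 84.3 CPM after the combination. The library labelled combination replicate 3 was thus within the range of DMSO, and the library labelled cytarabine replicate 3 was above it, close to daunorubicin replicate 3. OCIAML3 is therefore described last, with and without the libraries labelled cytarabine replicate 3 and combination replicate 3.

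The levels before treatment are compared first, in the 9 DMSO libraries. HL60 had the most mRNA for 9 of the 10 genes. Of these, TRIB3 differed most between HL60 and OCIAML3, and CHAC1 between HL60 and MOLM13. Per transcript length, in Salmon's TPM unit (length-scaled transcript abundance, mean ± SD, n = 3), the order within HL60 was ATF4 at 650.0 ± 46.9, MTHFD2 at 340.0 ± 38.8, SHMT2 at 307 ± 33.1, PHGDH at 238 ± 40.5, PSAT1 at 159 ± 20.4, ASNS at 77.2 ± 11.5, TRIB3 at 65.2 ± 8.97, PSPH at 20.2 ± 3.49, DDIT3 at 15.7 ± 1.83 and CHAC1 at 8.9 ± 4.11 TPM. The neighbours MTHFD2 and SHMT2, ASNS and TRIB3, and PSPH and DDIT3 overlapped between libraries. ATF4 was also first and CHAC1 last in the other lines, at 319 ± 52.1 and 2.26 ± 1.05 TPM in MOLM13 and at 303 ± 10.2 and 3.01 ± 0.247 TPM in OCIAML3. MTHFD2 and SHMT2 followed ATF4 there too and again overlapped, with 178 ± 13.7 and 151 ± 16.8 TPM in MOLM13.

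**Figure D1:**
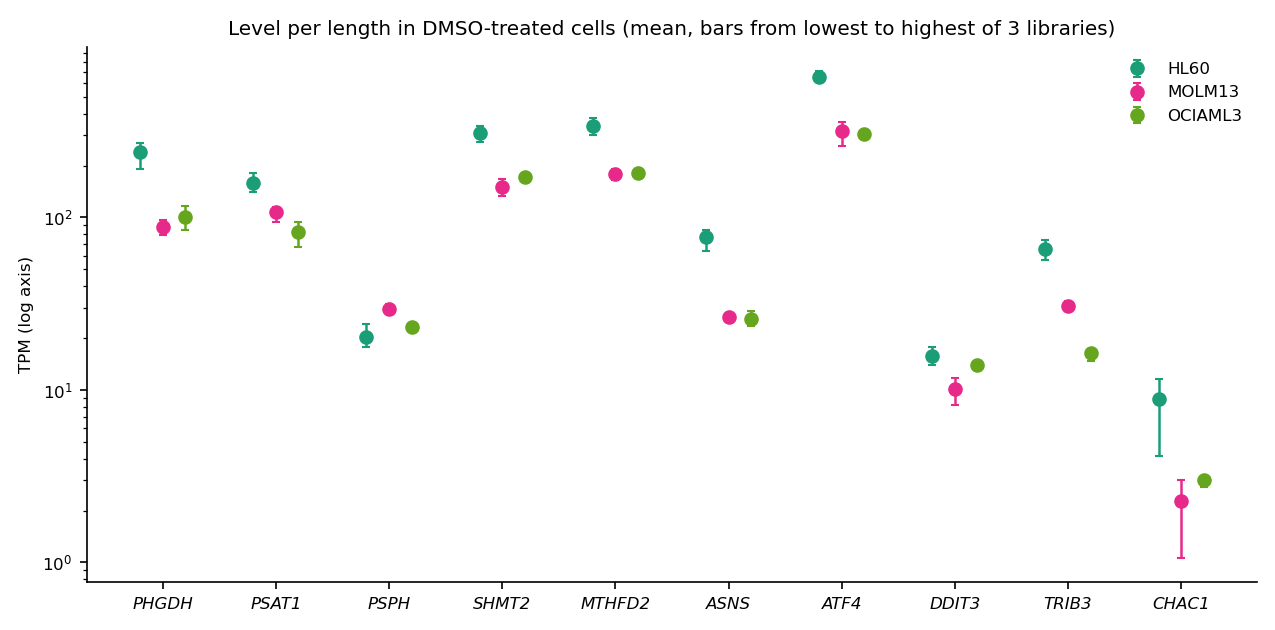
TPM of the 10 genes in the DMSO libraries of HL60, MOLM13 and OCIAML3 on a log axis, with points at the mean of 3 libraries and bars from the lowest to the highest. HL60 lies above both other lines for 8 genes, with 650.0 ± 46.9 TPM (SD) of ATF4 against 319 ± 52.1 in MOLM13 and 303 ± 10.2 in OCIAML3, its DDIT3 bar meets that of OCIAML3, and PSPH is highest in MOLM13.

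Differences between lines were tested with edgeR's quasi-likelihood test and Benjamini-Hochberg adjustment over 16532 genes, and a gene was called where the adjusted p was under 0.05 and the log2 fold change exceeded 1 in size. Against MOLM13, 6 genes were called higher in HL60 and 0 lower, where 30.6% of all genes were called in either direction: CHAC1 by 2.17 ± 0.41 (SE, adjusted p = 0.000667) on the log2 scale, ASNS by 1.60 ± 0.12 (SE, adjusted p = 4.45e-07), PHGDH by 1.45, TRIB3 by 1.22, SHMT2 by 1.10 and ATF4 by 1.09. Without the MOLM13 DMSO library of replicate 2 the difference in ATF4 was 0.98, below the fold threshold. PSPH, with 25.2 ± 1.62 CPM in HL60 and 33.4 ± 2.14 CPM in MOLM13, was the exception and was lower in HL60 by 1.33-fold at an adjusted p of 0.00175, short of the fold threshold. The other differences were 0.68 for DDIT3, 0.97 for MTHFD2 and 0.63 for PSAT1, below the fold threshold. Against OCIAML3, 8 genes were called higher in HL60 and 0 lower, where 38.3% of all genes were called in either direction. TRIB3 led them with 134 ± 17.8 CPM in HL60 and 26.2 ± 1.85 CPM in OCIAML3, a log2 difference of 2.35 ± 0.10 (SE, adjusted p = 2.66e-09). DDIT3 (0.51) and PSPH (0.09) were not called. The other 7 differences, each called, were 1.91 for CHAC1, 1.64 for PHGDH, 1.96 for ASNS, 1.17 for SHMT2, 1.27 for PSAT1, 1.2 for MTHFD2 and 1.45 for ATF4. Between MOLM13 and OCIAML3 only TRIB3 was called, where 30.9% of all genes were called in either direction. TRIB3 was higher in MOLM13 by 1.13 ± 0.10 (SE, adjusted p = 1.72e-06). The others lay below the fold threshold, at 0.18 for PHGDH, 0.64 for PSAT1, 0.50 for PSPH, 0.07 for SHMT2, 0.23 for MTHFD2, 0.36 for ASNS, -0.26 for CHAC1, -0.18 for DDIT3 and 0.35 for ATF4. ASNS overlaps an unnamed long noncoding gene on its own strand, as described below for MOLM13. With both counted as 1 gene, HL60 was higher in ASNS by 1.41 against MOLM13 and 1.61 against OCIAML3, both still called. MOLM13 was then higher than OCIAML3 by 0.20, not called. The median log2 difference of the 10 genes was 1.09 for HL60 against MOLM13, 1.36 for HL60 against OCIAML3 and 0.29 for MOLM13 against OCIAML3, beside -0.03, -0.09 and -0.01 over all genes.

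In HL60, DDIT3, CHAC1 and TRIB3 rose after cytarabine and after the combination, while ATF4 mRNA itself was lower after every treatment and the serine enzymes PHGDH and SHMT2 overlapped the controls. After 24 h of cytarabine 3 of 10 genes rose, against 13.7% of all genes, and 0 fell, against 3.12%. At the adjusted p alone 4 were higher (23.6% of all genes) and 1 was lower (22.0%). After daunorubicin 0 of 10 passed both thresholds in either direction, against 6.76% of all genes upward and 0.538% downward, and at the adjusted p alone 1 was higher (12.8%) and 1 lower (9.14%). At an unadjusted p under 0.05 there were 3 of the genes after daunorubicin, against 35.5% of all genes, and DESeq2 called 0 of the 10, against 7.74%. The combination raised 3 (17.0% of all genes) and lowered 0 (6.29%), with 5 higher (28.1%) and 2 lower (25.3%) at the adjusted p alone. The median log2 change of the 10 genes was 0.18 with cytarabine, -0.06 with daunorubicin and 0.26 with both, beside 0.01, 0.01 and 0.04 over all genes. In bulk RNA, fewer cells that express a gene and less of its RNA per cell cannot be told apart.

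ATF4 mRNA in HL60 lay at 808, 778 and 725 CPM in the DMSO libraries of replicates 1, 2 and 3. It lay at 482, 435 and 458 CPM after cytarabine, at 508, 536 and 602 CPM after daunorubicin and at 535, 423 and 409 CPM after the combination. All 9 treated libraries were below all 3 controls. The log2 changes were -0.75 ± 0.11 (SE, adjusted p = 0.000159) with cytarabine, -0.49 ± 0.11 (SE, adjusted p = 0.00825) with daunorubicin and -0.76 ± 0.11 (SE, adjusted p = 8.31e-05) with both. Each passed the adjusted p and none reached the fold threshold.

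DDIT3, which encodes CHOP, lay at 11.1, 10.5 and 12.9 CPM in HL60 under DMSO, at 90.8, 34 and 59.8 CPM after cytarabine, at 12.5, 14.3 and 12 CPM after daunorubicin and at 145, 85 and 70.3 CPM after the combination. The cytarabine and combination libraries were all above the controls although they varied among themselves, and the daunorubicin libraries overlapped the controls. DDIT3 rose 5.34-fold after cytarabine, a log2 change of 2.42 ± 0.32 (SE, adjusted p = 7.06e-05), and 8.7-fold after the combination, 3.12 ± 0.33 (SE, adjusted p = 6.32e-06). After daunorubicin the change was 0.17 ± 0.32 (SE, adjusted p = 0.748). DDIT3 overlaps MARS1 and MBD6 on the opposite strand by 982 and 1028 bases and the unnamed gene ENSG00000285133 on its own strand by 2769 bases, and in unstranded libraries reads from such stretches cannot be told apart.

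TRIB3 lay at 159, 152 and 123 CPM under DMSO, at 469.9, 296 and 360.2 CPM after cytarabine, at 138, 136 and 136 CPM after daunorubicin and at 479, 429.7 and 292 CPM after the combination. The pattern over treatments was the one seen for DDIT3, with no overlap between controls and either group that received cytarabine. TRIB3 rose by 1.37 ± 0.19 (SE, adjusted p = 8.29e-05) on the log2 scale after cytarabine and by 1.47 ± 0.19 (SE, adjusted p = 2.62e-05) after the combination, and its change after daunorubicin was -0.09 ± 0.18 (SE, adjusted p = 0.785).

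CHAC1, which cleaves glutathione in the cytosol, had the lowest TPM of the 10 genes under DMSO, with 5.61, 13 and 13.6 CPM in these libraries. It lay at 44.3, 28.2 and 58.7 CPM after cytarabine, at 12.3, 15.4 and 24.9 CPM after daunorubicin and at 65, 48.8 and 42.6 CPM after the combination. The lowest library with cytarabine was above the highest control. CHAC1 rose 4.06-fold after cytarabine, a log2 change of 2.02 ± 0.35 (SE, adjusted p = 0.000464), and 4.84-fold after the combination, 2.27 ± 0.35 (SE, adjusted p = 0.000125). After daunorubicin the change was 0.70 ± 0.35 (SE, adjusted p = 0.165), and the libraries overlapped the controls.

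ASNS, which makes asparagine from aspartate and shares the TGATGNAA match with CHAC1, lay at 138, 126 and 101 CPM under DMSO, at 125, 84.6 and 119 CPM after cytarabine, at 91.8, 92.7 and 116 CPM after daunorubicin and at 137, 111 and 110.3 CPM after the combination. All groups overlapped the controls. The log2 changes of -0.15, -0.28 and -0.03 had adjusted p-values of 0.462, 0.232 and 0.903.

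Of the serine synthesis enzymes, PSPH, the phosphatase of the last step, was the one that was higher in HL60. It lay at 27.4, 28.9 and 25.5 CPM under DMSO, at 42.2, 42.1 and 47.4 CPM after cytarabine, at 31.6, 39.4 and 33.8 CPM after daunorubicin and at 47, 43.5 and 43.1 CPM after the combination, and every treated library was above every control. The log2 changes of 0.69 ± 0.11 (SE, adjusted p = 0.00023), 0.36 ± 0.11 (SE, adjusted p = 0.0317) and 0.71 ± 0.11 (SE, adjusted p = 0.00011) passed the adjusted p but not the fold threshold. PHGDH, which catalyses the first step, ranged from 277 to 371 CPM under DMSO, 274 to 426 after cytarabine, 307 to 339 after daunorubicin and 348 to 420.0 after the combination. These ranges overlapped and no change of PHGDH passed the test, with log2 changes of 0.14, -0.03 and 0.19. PSAT1, the aminotransferase of the second step, had 287 ± 30.2 CPM (SD, n = 3) under DMSO and 212 ± 4.95 CPM after the combination, where it was lower by 1.35-fold at an adjusted p of 0.0103, short of the fold threshold. After cytarabine the log2 change of PSAT1 was -0.32 (adjusted p = 0.0545) and after daunorubicin -0.30 (adjusted p = 0.104).

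Of the mitochondrial enzymes, neither passed the fold threshold in HL60. SHMT2, which splits serine into glycine and a one-carbon unit, ranged from 509 to 610.0 CPM under DMSO and from 477 to 625, 504 to 557 and 490.0 to 637 CPM after cytarabine, daunorubicin and the combination, with log2 changes of 0.02, -0.07 and -0.02. MTHFD2, which oxidises the one-carbon unit on folate, lay at 585, 587 and 490.0 CPM under DMSO and at 710.1, 738 and 630.0 CPM after the combination, where it was 1.25-fold higher at an adjusted p of 0.0158 but short of the fold threshold. After cytarabine its 3 libraries were also above the controls, with a log2 change of 0.22 (adjusted p = 0.0901), and after daunorubicin the change was -0.04 (adjusted p = 0.795). On the opposite strand MTHFD2 overlaps SLC4A5 by 1324 bases and the unnamed genes ENSG00000264324 and ENSG00000279070 by 5962 and 1863 bases. SHMT2 overlaps NDUFA4L2 by 33 bases and the unnamed gene ENSG00000276727 by 626 bases on the opposite strand. The same limit holds for these stretches.

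**Figure D2:**
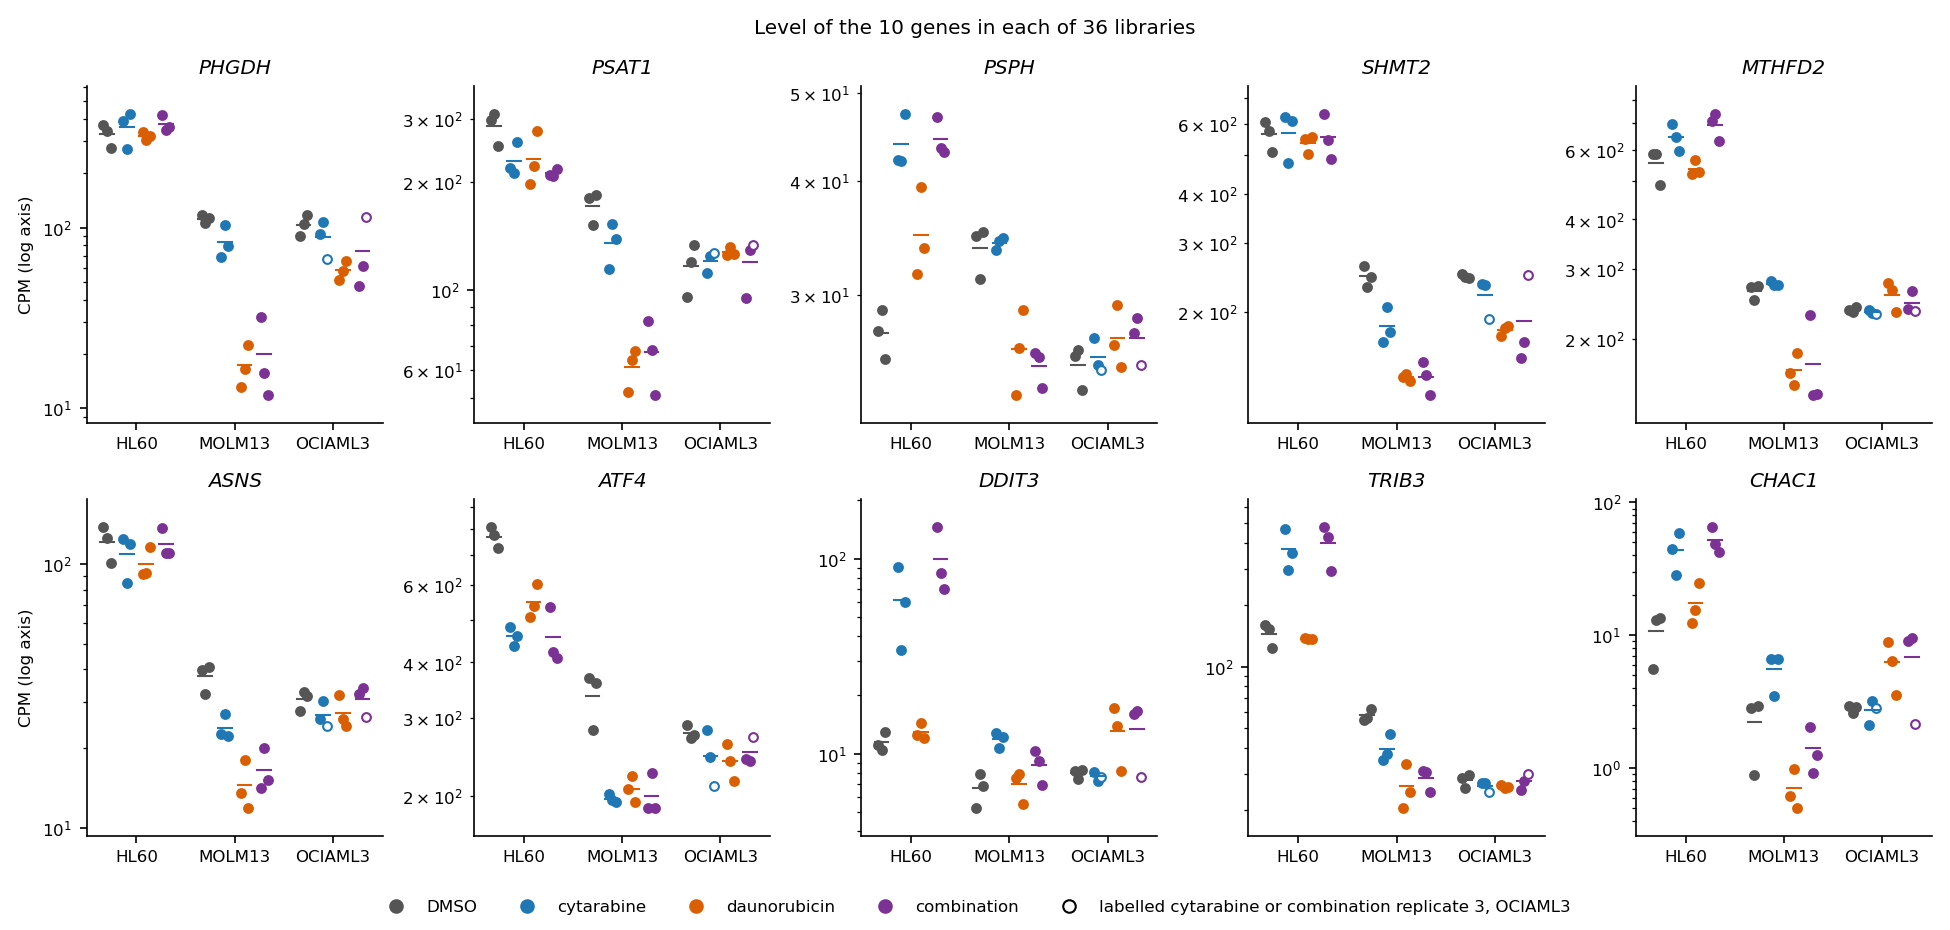
CPM of each gene in every library of HL60, MOLM13 and OCIAML3 on a log axis, by treatment, with libraries as points, group means as lines and open points for the discordant OCIAML3 pair. In HL60 the DDIT3, CHAC1 and TRIB3 points of cytarabine and the combination lie above those of DMSO, and in MOLM13 the PHGDH points fall from 112 ± 5.90 CPM under DMSO to 17.3 ± 4.65 CPM after daunorubicin.

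The drugs were then compared directly in HL60, as cytarabine against daunorubicin with an adjusted p under 0.05 and no fold threshold. TRIB3, DDIT3 and CHAC1 were higher with cytarabine, 3 of 10 genes, where 16.5% of all genes differed in either direction. The log2 differences were 2.25 ± 0.32 (SE, adjusted p = 0.0013) for DDIT3, 1.46 ± 0.19 (SE, adjusted p = 0.000719) for TRIB3 and 1.32 ± 0.34 (SE, adjusted p = 0.0206) for CHAC1. The CHAC1 call was lost when cytarabine replicate 1 (adjusted p = 0.0579) or 3 (0.0728), or daunorubicin replicate 1 (0.0725) or 2 (0.0633) was left out. The other differences were 0.17 for PHGDH, -0.02 for PSAT1, 0.33 for PSPH, 0.09 for SHMT2, 0.27 for MTHFD2, 0.13 for ASNS and -0.26 for ATF4, with adjusted p-values of 0.0509 to 0.949. In HL60 the same-numbered libraries deviated together, and a model with the replicate number as a block called 5 genes, adding PSPH at 0.33 (adjusted p = 0.0167) and MTHFD2 at 0.26 (adjusted p = 0.0118). Whether the combination departed from the sum of both single-drug changes on the log2 scale was tested as well. None of the 10 genes did (0 calls, against 5.14% of all genes), with 2 at an unadjusted p under 0.05 (20.8% of all genes) and 0 called by DESeq2 (9.94%), while the block model called ATF4 at 0.47 (adjusted p = 0.0308). The departure for DDIT3 was 0.53 ± 0.43 (SE, adjusted p = 0.532) and for TRIB3 0.18 ± 0.26 (SE, adjusted p = 0.755). The others were 0.08 for PHGDH, 0.18 for PSAT1, -0.34 for PSPH, 0.04 for SHMT2, 0.15 for MTHFD2, 0.41 for ASNS, -0.45 for CHAC1 and 0.48 for ATF4, with adjusted p-values of 0.0994 to 0.93.

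In MOLM13, PHGDH, PSAT1, ASNS and TRIB3 fell after daunorubicin and after the combination, CHAC1 fell after daunorubicin, and only CHAC1 rose, after cytarabine. Cytarabine raised 1 gene, against 7.11% of all genes, and lowered 0, against 1.03%, with 2 higher (17.1%) and 4 lower (17.8%) at the adjusted p alone. Daunorubicin lowered 5 of 10, against 5.71% of all genes, and raised 0, against 11.3%, and at the adjusted p alone 9 were lower (25.7%) and 0 higher (26.9%). The combination lowered 4 (5.61% of all genes) and raised 0 (11.8%), with 8 lower (26.0%) and 0 higher (27.0%) at the adjusted p alone. The median log2 change of the 10 genes was -0.38 with cytarabine, -1.0 with daunorubicin and -0.80 with both, beside 0.02, 0.07 and 0.07 over all genes.

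ATF4 in MOLM13 lay at 369, 281 and 359 CPM under DMSO, at 201, 195 and 194 CPM after cytarabine, at 207, 221 and 193 CPM after daunorubicin and at 188, 225 and 188 CPM after the combination. As in HL60, the treated libraries were all below the controls. The changes of -0.77 ± 0.10 (SE, adjusted p = 0.000297), -0.70 ± 0.10 (SE, adjusted p = 0.000214) and -0.75 ± 0.10 (SE, adjusted p = 0.000141) passed the adjusted p and fell short of the fold threshold.

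PHGDH had the largest change of the 10 genes in MOLM13. It lay at 118, 106 and 113 CPM under DMSO, at 68.9, 103 and 79.4 CPM after cytarabine, at 13.1, 16.4 and 22.3 CPM after daunorubicin and at 32.2, 15.7 and 11.9 CPM after the combination. With daunorubicin in either form no library came near the controls, and after cytarabine the 3 libraries were below the controls by a smaller margin. PHGDH fell 6.51-fold after daunorubicin, a log2 change of -2.70 ± 0.33 (SE, adjusted p = 5.32e-05), and 5.63-fold after the combination, -2.49 ± 0.32 (SE, adjusted p = 8.71e-05). After cytarabine the change was -0.42 ± 0.30 (SE, adjusted p = 0.312).

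PSAT1 lay at 181, 153 and 184 CPM under DMSO, at 114, 153 and 139 CPM after cytarabine, at 52.1, 63.8 and 67.8 CPM after daunorubicin and at 82.2, 68.2 and 51.2 CPM after the combination. Only the cytarabine libraries overlapped the controls. PSAT1 fell, with log2 changes of -1.49 ± 0.17 (SE, adjusted p = 3.63e-05) after daunorubicin and -1.36 ± 0.17 (SE, adjusted p = 6.67e-05) after the combination. PSPH was lower after daunorubicin, -0.37 ± 0.09 (SE, adjusted p = 0.00456), and after the combination, -0.43 ± 0.09 (SE, adjusted p = 0.00178), both short of the fold threshold, and its change after cytarabine was 0.02 (adjusted p = 0.887).

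SHMT2 and MTHFD2 were lower too, by less than the fold threshold. SHMT2 had 246 ± 14.7 CPM (SD, n = 3) under DMSO, 184 ± 19.9 with cytarabine, 137 ± 2.99 with daunorubicin and 137 ± 13.1 with both drugs, with log2 changes of -0.42 ± 0.09 (SE, adjusted p = 0.00366), -0.85 ± 0.09 (SE, adjusted p = 2.28e-05) and -0.84 ± 0.09 (SE, adjusted p = 2.61e-05). MTHFD2 had 264 ± 11.4 CPM under DMSO and 167 ± 15.7 after daunorubicin, a change of -0.66 ± 0.15 (SE, adjusted p = 0.00303). After the combination the MTHFD2 libraries lay at 229, 145 and 145 CPM, the first of them well above the others, and the change was -0.61 ± 0.15 (SE, adjusted p = 0.00484). After cytarabine its change was 0.06 (adjusted p = 0.79).

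ASNS lay at 39.6, 32.3 and 40.6 CPM under DMSO, at 22.6, 27.1 and 22.3 CPM after cytarabine, at 13.6, 18 and 11.9 CPM after daunorubicin and at 14.2, 20.1 and 15.2 CPM after the combination, with no treated library within the range of the controls. ASNS fell after daunorubicin, a log2 change of -1.38 ± 0.18 (SE, adjusted p = 7.4e-05), and after the combination, -1.18 ± 0.17 (SE, adjusted p = 0.000196). After cytarabine it was lower, -0.65 ± 0.17 (SE, adjusted p = 0.0127), short of the fold threshold. The unnamed long noncoding gene ENSG00000284707 overlaps ASNS on the same strand by 20855 bases, so that reads can be divided between them in quantification. Its share of the sum of both was 21.2 to 24.5% in the MOLM13 DMSO libraries, 20.4 to 24.8% after cytarabine, 37.9 to 48.0% after daunorubicin and 37.6 to 39.4% after the combination. With both counted as 1 gene, an alternative chosen after seeing the data, the changes were -0.98 ± 0.16 (SE, adjusted p = 0.000312) and -0.87 ± 0.15 (SE, adjusted p = 0.000692), which passed the adjusted p and just missed the fold threshold, so that 4 and 3 genes of the set fell instead of 5 and 4.

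TRIB3, DDIT3 and CHAC1 did not move together in MOLM13. TRIB3 lay at 55, 56.3 and 62 CPM under DMSO, at 35.1, 37.3 and 46.8 CPM after cytarabine, at 20.4, 33.4 and 24.3 CPM after daunorubicin and at 31, 30.7 and 24.3 CPM after the combination. Every treated library was below the controls, the reverse of HL60 after cytarabine. TRIB3 fell after daunorubicin, a log2 change of -1.15 ± 0.17 (SE, adjusted p = 0.000229), and after the combination, -1.01 ± 0.17 (SE, adjusted p = 0.000533). After cytarabine it was lower, -0.54 ± 0.17 (SE, adjusted p = 0.029), short of the fold threshold. Without DMSO replicate 3 or combination replicate 3 the change after the combination was -0.96 or -0.92, below the fold threshold.

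DDIT3 in MOLM13 lay at 5.27, 7.9 and 6.86 CPM under DMSO, at 12.8, 10.7 and 12.2 CPM after cytarabine, at 7.51, 7.89 and 5.53 CPM after daunorubicin and at 10.3, 9.15 and 6.94 CPM after the combination. The cytarabine libraries were above the controls, by 0.83 ± 0.19 (SE, adjusted p = 0.00681), short of the fold threshold, and the other groups overlapped them, with changes of 0.06 (adjusted p = 0.808) and 0.40 (adjusted p = 0.107).

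CHAC1 was low in MOLM13, with 2.86, 0.889 and 2.93 CPM under DMSO, 6.65, 3.49 and 6.59 CPM after cytarabine, 0.617, 0.991 and 0.503 CPM after daunorubicin and 2.05, 0.918 and 1.26 CPM after the combination. The DMSO library of replicate 2 was lower than its fellows and lay within the range of the daunorubicin libraries. CHAC1 rose 2.5-fold after cytarabine, a log2 change of 1.32 ± 0.45 (SE, adjusted p = 0.0383), and fell 3.15-fold after daunorubicin, -1.65 ± 0.49 (SE, adjusted p = 0.015). After the combination the change was -0.65 ± 0.46 (SE, adjusted p = 0.257). The rise was lost without any 1 of 6 libraries, with adjusted p-values of 0.0515 without combination replicate 3, 0.0529 without daunorubicin replicate 1, 0.0568 and 0.0929 without DMSO replicates 1 and 2, and 0.118 and 0.11 without cytarabine replicates 1 and 3, and under a transcript length offset (0.0515). The fall was lost without DMSO replicate 1 (0.0544) or 3 (0.0551) or daunorubicin replicate 3 (0.0528).

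**Figure D3:**
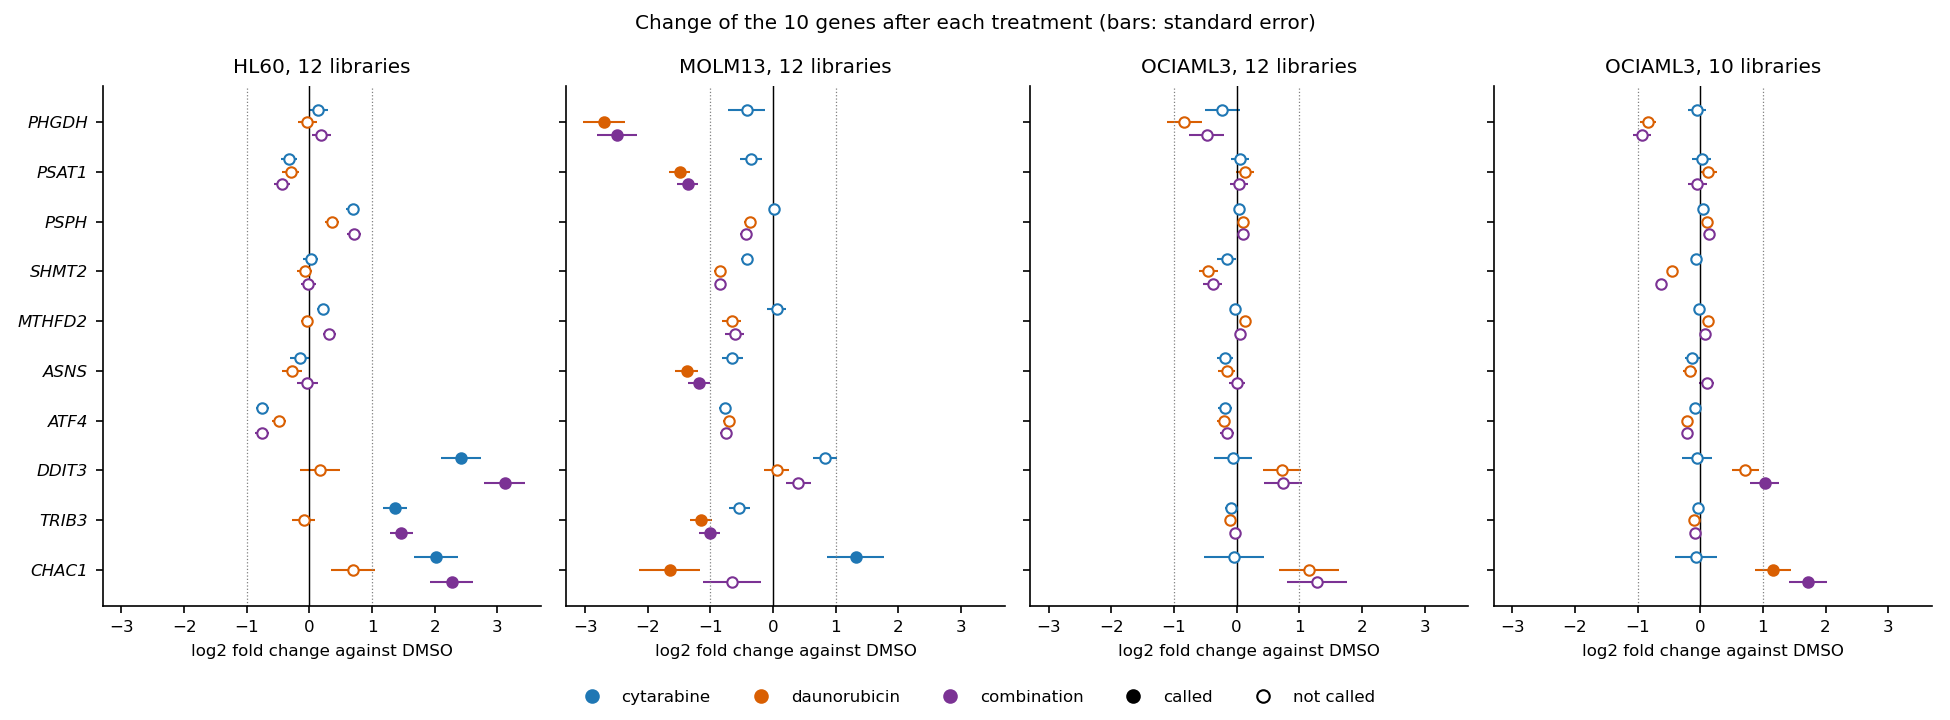
Log2 fold change against DMSO of the 10 genes in each line and treatment, with standard errors from edgeR, in 3 panels with all 12 libraries of a line and a last panel of OCIAML3 without the discordant pair. Filled points passed both thresholds: DDIT3, CHAC1 and TRIB3 are above 1 in HL60 with cytarabine (up to 3.12 for DDIT3 with the combination), and PHGDH reaches -2.70 in MOLM13 with daunorubicin.

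Compared directly in MOLM13, 9 of 10 genes were higher with cytarabine than with daunorubicin at an adjusted p under 0.05, where 26.1% of all genes differed in either direction. ATF4 was the exception, at -0.07 (adjusted p = 0.639). The log2 differences were 2.98 ± 0.50 (SE, adjusted p = 0.00299) for CHAC1, 2.28 ± 0.32 (SE, adjusted p = 0.00188) for PHGDH, 1.15 ± 0.17 (SE, adjusted p = 0.00215) for PSAT1. The others were 0.73 for ASNS, 0.77 for DDIT3, 0.72 for MTHFD2, 0.61 for TRIB3, 0.43 for SHMT2 and 0.39 for PSPH. With the long noncoding gene merged the difference in ASNS was 0.33 (adjusted p = 0.138) in place of 0.73 (adjusted p = 0.012). That in DDIT3 was lost without cytarabine replicate 1 (adjusted p = 0.0521) and in a fit of all 36 libraries (0.0743), and that in TRIB3 without cytarabine replicate 2 (0.0504) or 3 (0.0956) or daunorubicin replicate 1 (0.0776) or 3 (0.0622). The combination departed from the sum of the single-drug changes for 3 genes, against 18.8% of all genes, each less reduced than that sum: ATF4 by 0.72 ± 0.15 (SE, adjusted p = 0.00732), ASNS by 0.84 ± 0.24 (SE, adjusted p = 0.0344) and SHMT2 by 0.43 ± 0.12 (SE, adjusted p = 0.0348). The other departures were 0.63 for PHGDH, 0.48 for PSAT1, -0.08 for PSPH, -0.01 for MTHFD2, -0.32 for CHAC1, -0.49 for DDIT3 and 0.68 for TRIB3, with adjusted p-values of 0.0729 to 0.986. The ATF4 call held without any 1 library. Those of ASNS and SHMT2 were lost in 7 and 9 of the 12 fits without 1 library, with adjusted p-values up to 0.0827 and 0.0899, and both were lost under a transcript length offset (0.0808 and 0.0825). That of SHMT2 was also lost in the fit of all 36 libraries (0.132) and without the filter on low counts (0.0603). ASNS was lost without DMSO, cytarabine or daunorubicin replicate 1 or 3 or combination replicate 2, and SHMT2 without these or daunorubicin replicate 2 or combination replicate 1. Without combination replicate 3, 5 genes were called.

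In OCIAML3, with all 12 libraries as labelled, 0 of the 10 genes were called after any treatment, where 0.0% of all genes were called in each comparison. At an unadjusted p under 0.05 there were 255, 5086 and 3873 genes after cytarabine, daunorubicin and the combination, or 1.53%, 30.5% and 23.3% of all genes, of which 0, 4 and 3 were of the set, and DESeq2 called 1, 324 and 8 genes and 0 of the set. Without the libraries labelled cytarabine replicate 3 and combination replicate 3, daunorubicin raised 1 of the genes (3.61% of all genes) and lowered 0 (0.539%), with 2 higher (15.3%) and 2 lower (16.0%) at the adjusted p alone. The combination then raised 2 (5.9% of all genes) and lowered 0 (1.96%), with 2 higher (20.1%) and 2 lower (21.6%) at the adjusted p alone. Cytarabine gave 0 calls here too, for the set and for all genes (0.0%), with 0 of the set and 312 genes (1.85%) at an unadjusted p under 0.05. These fits held 2 libraries each of cytarabine and the combination. The combination library left out had CDKN1A within the DMSO range, so that changes gained without it follow in part from that choice. The changes in OCIAML3 were not tested against those of the other lines. After cytarabine the log2 changes over all libraries were -0.23 for PHGDH, 0.05 for PSAT1, 0.03 for PSPH, -0.16 for SHMT2, -0.02 for MTHFD2, -0.19 for ASNS, -0.04 for CHAC1, -0.06 for DDIT3, -0.18 for ATF4 and -0.09 for TRIB3, each with an adjusted p of 1.0.

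CHAC1 in OCIAML3 lay at 2.93, 2.6 and 2.89 CPM under DMSO, at 2.1, 3.2 and 2.86 CPM after cytarabine, at 8.87, 6.36 and 3.53 CPM after daunorubicin and at 8.99, 9.5 and 2.14 CPM after the combination, where the library of replicate 3 was below the controls and the others well above them. Its log2 changes over all libraries were 1.16 ± 0.48 (SE, adjusted p = 0.143) after daunorubicin and 1.29 ± 0.48 (SE, adjusted p = 0.209) after the combination, and without the discordant pair it rose by 1.16 ± 0.29 (SE, adjusted p = 0.0142) and 1.72 ± 0.31 (SE, adjusted p = 0.00201). DDIT3 lay at 8.14, 7.44 and 8.29 CPM under DMSO, at 8.09, 7.24 and 7.62 CPM after cytarabine, at 17.2, 13.8 and 8.18 CPM after daunorubicin and at 15.9, 16.5 and 7.55 CPM after the combination. Daunorubicin replicate 3, which also had the lowest CDKN1A of its group, was within the DMSO range for DDIT3. Over all libraries the changes in DDIT3 were 0.72 (adjusted p = 0.143) and 0.74 (adjusted p = 0.209), and without the pair it rose after the combination by 1.03 ± 0.23 (SE, adjusted p = 0.00605) and was higher after daunorubicin by 0.72 ± 0.21 (SE, adjusted p = 0.0293), short of the fold threshold. The combination library left out had the lowest CHAC1 and DDIT3 of its group, and the larger rises after the combination follow from its removal.

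PHGDH in OCIAML3 lay at 90.1, 105 and 117 CPM under DMSO, at 92.6, 108 and 66.7 CPM after cytarabine, at 51.6, 57.4 and 65 CPM after daunorubicin and at 47.7, 61.3 and 115 CPM after the combination. The daunorubicin libraries were below the controls, and the combination library of replicate 3 was not. The changes over all libraries were -0.84 (adjusted p = 0.124) and -0.48 (adjusted p = 0.283), and without the pair -0.84 (adjusted p = 0.00224) and -0.93 (adjusted p = 0.00114), lower at the adjusted p but short of the fold threshold. SHMT2 had the same pattern, with 246 ± 3.17 CPM (SD, n = 3) under DMSO, 174, 182 and 184 CPM after daunorubicin and 153, 168 and 248 CPM after the combination. Its changes were -0.45 (adjusted p = 0.124) and -0.38 (adjusted p = 0.209) over all libraries, and -0.45 (adjusted p = 0.000811) and -0.62 (adjusted p = 0.000311) without the pair.

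The other 6 genes of the set passed no test in OCIAML3. After daunorubicin the log2 changes were -0.21 for ATF4, -0.10 for TRIB3, -0.16 for ASNS, 0.13 for PSAT1, 0.10 for PSPH and 0.13 for MTHFD2 over all libraries. After the combination they were -0.15 for ATF4, -0.02 for TRIB3, 0.00 for ASNS, 0.04 for PSAT1, 0.10 for PSPH and 0.05 for MTHFD2. Without the pair the changes after the combination lay between -0.21 for ATF4 (adjusted p = 0.0743) and 0.14 for PSPH (adjusted p = 0.193). After daunorubicin without the pair ATF4 was at -0.22, with an adjusted p of 0.0535, just above the threshold. TRIB3 rose in HL60 after cytarabine and the combination, but not after daunorubicin, and fell in MOLM13 after daunorubicin and the combination. In OCIAML3 it ranged from 25.6 to 29.5 CPM under DMSO and from 25.6 to 26.5 and 24.9 to 30 CPM after daunorubicin and the combination.

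Compared directly in OCIAML3, 0 of the 10 genes differed between cytarabine and daunorubicin over all libraries at an adjusted p under 0.05 (0.0% of all genes), with 3 at an unadjusted p under 0.05 (14.9%) and 0 called by DESeq2 (0.0421%). Without the discordant pair, which leaves 2 cytarabine libraries, 4 differed (23.5% of all genes). CHAC1 and DDIT3 were lower with cytarabine than with daunorubicin, at -1.23 ± 0.33 (SE, adjusted p = 0.0272) and -0.77 ± 0.24 (SE, adjusted p = 0.0457) on the log2 scale, where in HL60 and MOLM13 both were higher. PHGDH and SHMT2 were higher with cytarabine, at 0.79 ± 0.14 (SE, adjusted p = 0.00692) and 0.39 ± 0.06 (SE, adjusted p = 0.00404). Over all libraries these 4 differences were -1.2 for CHAC1, -0.77 for DDIT3, 0.62 for PHGDH and 0.29 for SHMT2, and those of the other genes were -0.08 for PSAT1, -0.07 for PSPH, -0.15 for MTHFD2, -0.03 for ASNS, 0.04 for ATF4 and 0.01 for TRIB3. For departure from the sum of the single-drug changes 0 of 10 were called with all libraries (0.0% of all genes, with 0 of the set and 2.53% of all genes at an unadjusted p under 0.05) or without the pair (0.0%, with 1 of the set and 5.14% at an unadjusted p under 0.05), and DESeq2 called 0 of the set (0.036% of all genes). Over all libraries the departures were 0.59 for PHGDH, -0.15 for PSAT1, -0.03 for PSPH, 0.23 for SHMT2, -0.05 for MTHFD2, 0.36 for ASNS, 0.17 for CHAC1, 0.08 for DDIT3, 0.25 for ATF4 and 0.17 for TRIB3.

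Whether HL60 and MOLM13 responded differently was tested as the change in HL60 minus that in MOLM13, over 24 libraries and 17827 genes, with an adjusted p under 0.05 and no fold threshold. All called differences were positive, that is, the change in HL60 was more upward. After cytarabine 3 of 10 genes differed, against 7.77% of all genes: TRIB3 by 1.91 ± 0.27 (SE, adjusted p = 0.000151), DDIT3 by 1.59 ± 0.40 (SE, adjusted p = 0.0182) and PSPH by 0.66 ± 0.14 (SE, adjusted p = 0.00479). The others, not called, were 0.56 for PHGDH, 0.02 for PSAT1, 0.43 for SHMT2, 0.16 for MTHFD2, 0.49 for ASNS and 0.70 for CHAC1. The DDIT3 call was lost without MOLM13 DMSO replicate 2 (adjusted p = 0.0524). After daunorubicin 8 differed, against 19.9% of all genes, from MTHFD2 at 0.63 ± 0.19 (SE, adjusted p = 0.0224) to PHGDH at 2.68 ± 0.37 (SE, adjusted p = 9.56e-05). Between them were 2.36 for CHAC1, 1.2 for PSAT1, 1.10 for ASNS, 1.07 for TRIB3, 0.79 for SHMT2 and 0.73 for PSPH, and DDIT3 was at 0.12 (adjusted p = 0.921). That of MTHFD2 was lost without MOLM13 daunorubicin replicate 2 (adjusted p = 0.0606) or HL60 DMSO replicate 3 (0.0625). After the combination 9 differed, against 28.5% of all genes, all but ATF4, with the largest values for CHAC1 at 2.89 ± 0.61 (SE, adjusted p = 0.00138) and DDIT3 at 2.71 ± 0.41 (SE, adjusted p = 6.45e-05). The others were 2.66 for PHGDH, 2.46 for TRIB3, 1.14 for ASNS, 1.12 for PSPH, 0.91 for MTHFD2, 0.90 for PSAT1 and 0.81 for SHMT2. With the long noncoding gene merged the difference in ASNS was 0.69 after daunorubicin (adjusted p = 0.0383) and 0.76 after the combination (0.0173), in place of 1.10 and 1.14. ATF4 mRNA was lower in both lines, and its differences between them of 0.02 ± 0.16 (SE, adjusted p = 1.0), 0.22 ± 0.16 (SE, adjusted p = 0.361) and -0.02 ± 0.16 (SE, adjusted p = 0.975) did not pass the test. The comparisons of 1 line share its DMSO libraries and are not independent of each other. The study reported more cell death in MOLM13 than in HL60 after daunorubicin, and its part in these differences was not tested.

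**Figure D4:**
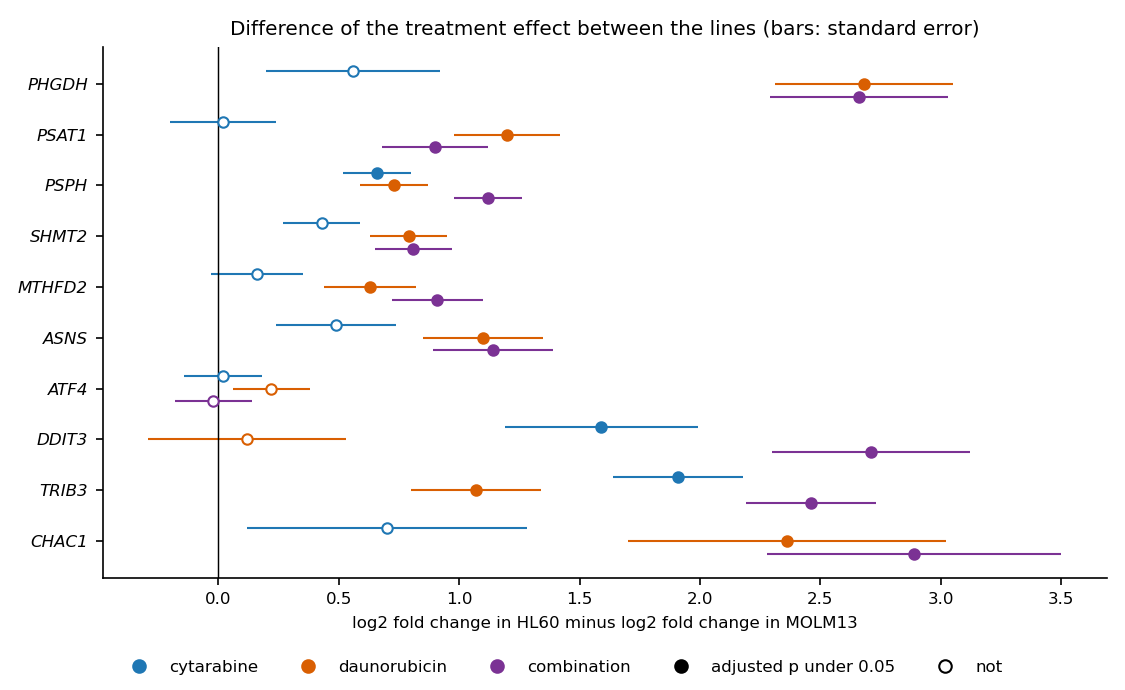
Difference between lines in the log2 change against DMSO, HL60 minus MOLM13, for each gene and treatment with its standard error over 24 libraries. Filled points passed an adjusted p under 0.05: TRIB3 is at 1.91 after cytarabine, PHGDH at 2.68 after daunorubicin and CHAC1 at 2.89 after the combination, while ATF4 stays between -0.02 and 0.22.

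The shares of single transcripts in these gene sums also varied between groups. In HL60, the share of SHMT2 counts in transcripts annotated as targets of nonsense-mediated decay, a pathway that degrades mRNA with an early stop, was 2.20% ± 0.04 (SD, n = 3) under DMSO, 8.64% ± 1.8 with cytarabine, 2.49% ± 0.16 with daunorubicin and 10.0% ± 1.16 with both. Every library with cytarabine was above every library without it, at 10.7, 8.01 and 7.23% after cytarabine and 11.0, 10.2 and 8.75% after the combination, while the SHMT2 sums overlapped those of DMSO. An exact permutation test of 3 against 3 libraries cannot reach a p below 0.10, and the shares are given as a description. Most of the difference lay in ENST00000555116, with 0.94% ± 0.21 of SHMT2 counts under DMSO, 4.38% ± 0.92 after cytarabine and 6.03% ± 1.17 after the combination, and in ENST00000556825, with 0.90% ± 0.13, 2.59% ± 0.56 and 1.93% ± 0.72. In MOLM13 and OCIAML3 the group means of this SHMT2 share stayed between 1.11 and 2.22%. For ASNS the share in HL60 was 1.41% ± 0.83 (SD, n = 3) under DMSO, 5.72% ± 0.80 with cytarabine, 2.73% ± 1.14 with daunorubicin and 4.67% ± 1.39 with both. In MOLM13 it was 8.98% ± 6.42 under DMSO, 9.64% ± 2.48 with cytarabine, 16.6% ± 11.9 with daunorubicin and 22.9% ± 5.28 with both. The MOLM13 libraries lay at 7.67, 16.0 and 3.31% under DMSO, at 11.2, 6.78 and 10.9% after cytarabine, at 4.06, 18 and 27.7% after daunorubicin and at 18.7, 21.2 and 28.8% after the combination, so that the daunorubicin libraries were spread over the range of both DMSO and the combination. In OCIAML3 the group means of the ASNS share lay between 10.5 and 15.5%. That of MTHFD2 had group means of 21.6 to 28.4%. Such shares rest on how Salmon divides reads between overlapping transcripts.

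**Figure D5:**
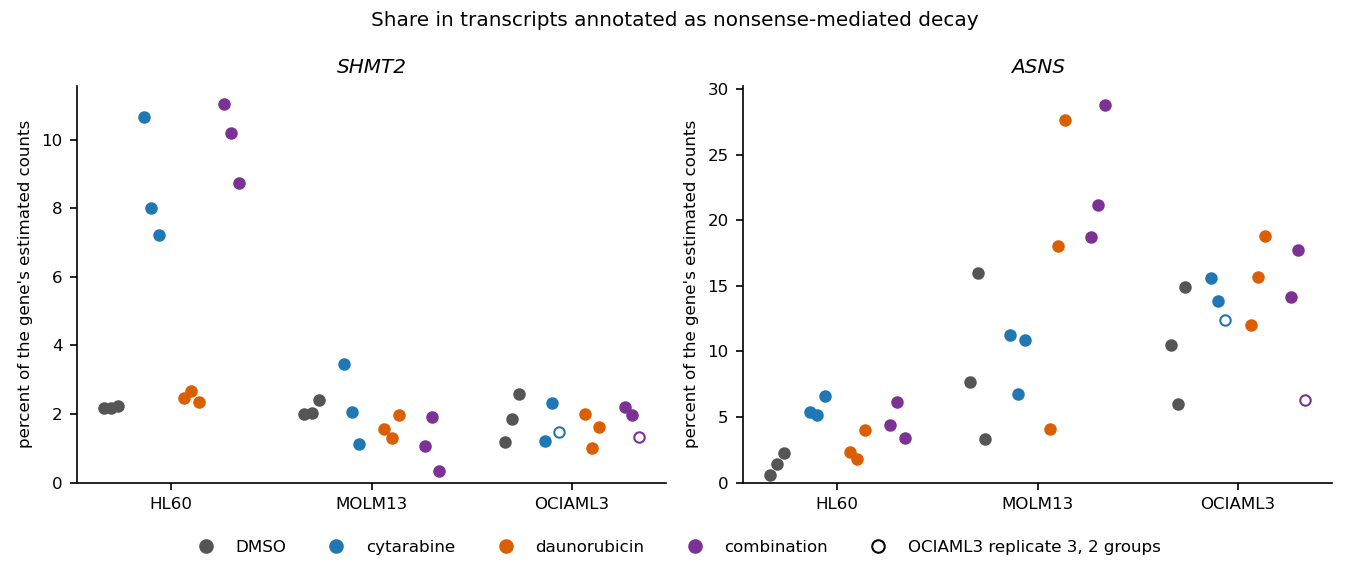
Percent of a gene's estimated counts in transcripts annotated for nonsense-mediated decay, for SHMT2 and ASNS, with 1 point per library by line and treatment and open points for the discordant OCIAML3 pair. The HL60 SHMT2 points with cytarabine or the combination lie at 7.23% or more, above every other SHMT2 point.

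Other genes of the same pathways were followed as lists, with counts read against the percentages over all genes given for each comparison. Of 23 other ATF4 and amino acid response genes tested in HL60, 9 rose after cytarabine and 0 fell, and 9 rose and 3 fell after the combination, with median log2 changes of 0.52 and 0.56. Among those that rose were the stress factor ATF3 at 4.82 (adjusted p = 1.26e-05) and 5.45 (adjusted p = 2.6e-06), PPP1R15A, the phosphatase subunit that reverses eIF2alpha phosphorylation, at 2.20 and 2.45, the mTORC1 inhibitor DDIT4 at 2.14 and 2.39, and the cysteine-forming enzyme CTH at 1.51 after cytarabine. The 3 that fell after the combination were ALDH18A1 at -1.51, PYCR1 at -1.16 and XPOT at -1.06. At the adjusted p alone 14 were higher and 6 lower after cytarabine, and 14 higher and 5 lower after the combination. After daunorubicin 0 of the 23 rose and 0 fell, with 2 higher and 4 lower at the adjusted p alone. The 13 other serine, glycine and one-carbon genes tested went down more often than up in HL60, 0 up and 2 down after cytarabine and 1 up and 4 down after the combination (medians -0.36 and -0.51), with the mitochondrial folate carrier SLC25A32 at -1.33 and -1.62 and the folate enzyme MTHFD2L at -1.08 and -1.52. Of 15 endoplasmic reticulum (ER) chaperones and targets of ATF6 or XBP1, the other arms of the ER stress response, 0 rose and 3 fell after each of cytarabine and the combination, with the chaperone HSP90B1 at -1.45 and -1.79 and HSPA5 at -1.20 (adjusted p = 0.000127) after cytarabine. The ER genes were not all lower. At the adjusted p alone 2 were higher and 8 lower after cytarabine, and 5 higher and 9 lower after the combination. Of 15 eIF2alpha kinases and regulators 0 were called in HL60 after any treatment, with 10, 3 and 13 lower at the adjusted p alone after cytarabine, daunorubicin and the combination. MYC, a known activator of serine synthesis genes, fell, with log2 changes of -1.19 (adjusted p = 0.000399) and -2.02 (adjusted p = 5.63e-06) after cytarabine and the combination, and of the 6 MYC and proliferation genes 2, 1 and 3 fell after cytarabine, daunorubicin and the combination.

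In MOLM13 about as many one-carbon genes fell after daunorubicin as after the combination. Of the list's 13 tested genes 7 fell and 1 rose after daunorubicin and 6 fell and 1 rose after the combination (medians -1.15 and -0.91), while 0 were called after cytarabine, with 1 higher and 6 lower at the adjusted p alone. SHMT1, the cytosolic counterpart of SHMT2, fell, with log2 changes of -2.71 (adjusted p = 0.00244) and -2.28 (adjusted p = 0.0056), as did the serine and glutamine carrier SLC1A5 at -1.51 and -1.37 and the cytosolic folate enzyme MTHFD1 at -1.28 and -1.31. AMT, a subunit of the glycine cleavage system, was the gene that rose, by 1.73 and 1.63. Of 24 other ATF4 and amino acid response genes 5 rose and 1 fell after cytarabine, 2 rose and 9 fell after daunorubicin, and 3 rose and 6 fell after the combination (medians 0.12, -0.71 and -0.51). The glycine carrier SLC6A9 was at -3.17 and -2.42 after daunorubicin and the combination, the arginine carrier SLC7A1 at -1.57 and -1.51, and the stress protein gene NUPR1 at 3.32, 2.09 and 2.40 after the 3 treatments. DDIT4 rose after the 3 treatments too, by 1.34, 1.07 and 1.14. ATF3 rose after cytarabine, by 2.03 (adjusted p = 0.000118), and was not called after daunorubicin (0.71) or the combination (0.56). The ER list had 0, 4 and 4 of 15 genes fall and 0 rise, the eIF2alpha list had 0, 1 and 0 of 15 fall and 0 rise, and of 6 MYC and proliferation genes 2, 4 and 3 fell. MYC was at -1.49 after cytarabine (adjusted p = 9.49e-05) and -1.19 after daunorubicin (adjusted p = 9.27e-05). After the combination it was at -0.98 (adjusted p = 0.000343), short of the fold threshold. MKI67, a marker of cycling cells, fell after daunorubicin, at -2.27 (adjusted p = 0.0356), and the part of the share of cycling cells in the changes of the set was not tested.

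In OCIAML3 0 genes of these lists were called with all libraries. Without the discordant pair, 3 and 5 of 23 other ATF4 and amino acid response genes rose after daunorubicin and the combination and 0 fell (medians 0.16 and 0.18), among them the cystine carrier SLC7A11 at 2.59 (adjusted p = 0.00212) and 2.78 (adjusted p = 0.000925), DDIT4 at 1.82 and 2.16 and ATF3 at 1.73 and 1.95. Of the one-carbon list MTHFD1 fell after the combination, at -1.05 (adjusted p = 0.000623), and of the MYC and proliferation genes MKI67, at -1.28 (adjusted p = 0.000219). The ER and eIF2alpha lists had 0 calls after both treatments, with 4 and 6 ER genes higher and 1 and 4 lower at the adjusted p alone.

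Genes with the most similar profiles were ranked by Pearson's r of log2(CPM + 1), less the DMSO mean of the line, over the 36 libraries and 10166 genes. For TRIB3 these were TXNL4B at r = 0.944, CDKN2AIP at 0.938, ZNF184 at 0.937, MED10 at 0.929 and TIFA at 0.927. For PHGDH they were PAQR4 at r = 0.982, ETV4 at 0.98, FANCE at 0.979, C4orf46 at 0.978 and SIVA1 at 0.977. The libraries share lines, treatments and the DMSO means, so that the values are a description.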

How the data were processed

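RNA of 36 libraries of HL60, MOLM13 and OCIAML3 cells was sequenced as unstranded paired-end reads. The authors deposited, per transcript, the estimated counts of Salmon, not normalized, and the TPM values it derives from effective transcript lengths. The submitters' processing notes name FastQC 0.11.9, Salmon 1.8.0 and edgeR 3.38.1, and the Ensembl release is not given in the sources used here. Groups and replicate numbers were taken from the labels. Of 252199 transcripts, 235378 were matched to 59041 genes of GENCODE release 44, and the 16821 others, with 3.99 to 4.52% of the counts, were left out. The counts of a gene's transcripts were added and rounded to whole numbers. Genes passing filterByExpr (min.count 10, min.total.count 15) were scaled with TMM factors (edgeR 4.0.16, R 4.3.3). The 12 libraries of each line were fitted with glmQLFit and tested with glmQLFTest, with Benjamini-Hochberg adjustment over all genes tested. Treatments and lines were called at an adjusted p under 0.05 with a log2 change beyond 1 in either direction, and the other contrasts at the adjusted p alone. CPM values are TMM-normalized within a line, or within the 9 DMSO libraries for the comparison of lines. TPM served to order genes within a line and to plot the levels of the set in the DMSO libraries of each line side by side. Differences between lines were tested on counts and not on TPM.

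Replicate pairs of every group differed by far more than sampling noise (lowest mean chi-square per gene 7.24). Same-numbered libraries deviated together in HL60, with correlations of 0.265 to 0.467 between groups and none below 0.215 for a single number, and a replicate block was therefore run there. This pairing is read from the data, as the labels give only numbers. Alternatives were DESeq2 1.42.0, its size factors in place of TMM, no filter, a transcript length offset, all 36 libraries in 1 model, a replicate block, each library left out in turn, and OCIAML3 without 2 libraries. The calling script was tested on simulated data. All 10 genes were named with values in every comparison, and the genes of other lists as examples among those called. The drugs compared directly in OCIAML3, and the departure from additivity there, were added after the data were seen. The members and lists were chosen with earlier results of these data known. A further list of cell type markers is not reported here.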

Additional observations from a re-analysis of the deposited data

Results flagged for a closer look

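For these results the change against DMSO differed between HL60 and MOLM13 by a test of the difference itself, an interaction term in edgeR's quasi-likelihood model with Benjamini-Hochberg adjustment. Values are the log2 change in HL60 minus that in MOLM13, and all were positive. After cytarabine they were 1.91 for TRIB3, 1.59 for DDIT3 and 0.66 for PSPH. After daunorubicin they were 2.68 for PHGDH, 2.36 for CHAC1, 1.2 for PSAT1, 1.10 for ASNS, 1.07 for TRIB3, 0.79 for SHMT2, 0.73 for PSPH and 0.63 for MTHFD2. After the combination they were 2.89 for CHAC1, 2.71 for DDIT3, 2.66 for PHGDH, 2.46 for TRIB3, 1.14 for ASNS, 1.12 for PSPH, 0.91 for MTHFD2, 0.90 for PSAT1 and 0.81 for SHMT2. The 3 sets share the DMSO libraries of both lines. No group had more than 3 libraries, so that single libraries were not tested as outliers.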

How the results depend on the processing

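Of 4340 values of single genes recomputed under an alternative, 4243 kept their side of the threshold, 49 lost a call and 48 gained one. Direction was compared only where the adjusted p was under 0.05 in the main or the alternative fit, and 0 of these values changed direction. Of 434 counts of called genes, 404 stayed within 1.5 times. Without a fold threshold the counts after cytarabine, daunorubicin and the combination were 5, 2 and 7 in HL60 (from 3, 0 and 3) and 6, 9 and 8 in MOLM13 (from 1, 5 and 4). A transcript length offset left 0 calls in MOLM13 after cytarabine and 1 for non-additivity (from 3). For cytarabine against daunorubicin in HL60, DESeq2 and the replicate block each gave 5 (from 3), and for non-additivity there the block gave 1 (from 0). The replicate block changed no other count by more than 1.5 times. Without the discordant pair, OCIAML3 had 1 call after daunorubicin, 2 after the combination and 4 for the drugs compared (each from 0). The cause of these changes was not tested. With 1 library left out at a time the counts were 0 to 1 in MOLM13 after cytarabine, 0 to 1 and 0 to 2 in OCIAML3 after daunorubicin and the combination, 2 to 3 for the drugs compared in HL60, 1 to 5 for non-additivity in MOLM13 and 2 to 4 for the line difference after cytarabine. Same-numbered libraries did not all deviate together in MOLM13 (correlations from 0.078 to 0.351) or OCIAML3 (-0.329 to 0.589), where they share only a number. Low counts limit CHAC1 in MOLM13, and 3 libraries per group limit every comparison.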
